A study of Mus musculus with 6 samples.

Results

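Cholesterol synthesis, its regulation by sterol response element binding proteins (SREBPs) and the transport of sterols were followed through 31 named genes in back skin of mouse embryos lacking Get1. Each gene was represented by the probe set with the highest mean log2 signal over the 6 arrays among those that the platform annotation assigns to that gene alone. Of the 31 genes, 28 had such a probe set, out of 11387 genes tested. All 28 passed the filter on low signal. Acat2, Soat1 and Nr1h2 had no row under their symbol, and their expression was not analysed here. Total RNA was taken from a matched region of back skin at e18.5 (the age tag of the labels reads e18) in 3 mutant (Get1 -/-) and 3 control (Get1 +/+) mice, with 1 array per mouse. Get1 is an earlier name of Grhl3, which encodes a grainyhead-like transcription factor. The labels describe no further allele or treatment in either genotype, and strain, litter, sex and the deleted part of Get1 are not given in the sources used here. The mice were numbered 1 to 3 within each genotype. The p-values set the genotype difference against the spread between these mice, moderated over all genes.

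Cells build cholesterol from acetyl-CoA. The mevalonate arm makes isoprenoid units and joins them into farnesyl diphosphate, 2 of which are condensed to squalene, and squalene is closed into the first sterol, lanosterol, which a series of late enzymes turns into cholesterol. When membrane cholesterol is low, Scap carries SREBP precursors to the Golgi for release of their active fragments, whereas Insig proteins hold them in the endoplasmic reticulum when sterols are plentiful, and liver X receptors raise sterol export when oxysterols accumulate. In late gestation the epidermis uses cholesterol, together with ceramides and free fatty acids, to build the lamellar lipids of the skin barrier.

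Grhl3 read 246, 413 and 380 in Get1 -/- skin, against 478, 934 and 670 in Get1 +/+ skin, in arbitrary units of MAS5 signal (replicates 1, 2 and 3 in this and all later lists). The groups did not overlap. The log2 change was -0.98 ± 0.28 (SE), with an adjusted p of 0.497 (limma, Benjamini-Hochberg over all genes). Where the probes lie relative to the deleted part is not known, so this reading does not check the genotypes. The trimmed mean signal was 500 on every array. The 3' to 5' signal ratio of the beta-actin control, a sign of RNA quality, ran from 1.36 to 1.49 in Get1 -/- skin and from 1.35 to 1.37 in Get1 +/+ skin, and that of Gapdh from 0.732 to 0.844 and from 0.692 to 0.810 in the same order.

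Most genes of sterol synthesis had fitted values below 0 in Get1 -/- skin, and none passed the test. All were read on the same 6 arrays, so a count of genes adds no replicates beyond the 3 mice per genotype. In whole skin, fewer cells of a type and less RNA per cell cannot be told apart. Of the 28 genes, 23 had a log2 change below 0 and 5 above it, with a median of -0.23, beside a median of 0.01 over all genes tested, of which 48.7% were below 0. The changes ran from -0.74 for Dhcr7 to 0.56 for Ggps1. No sterol gene passed an adjusted p of 0.05 in either direction (smallest adjusted p = 0.529, limma), where 0.0439% of all genes did. At an unadjusted p under 0.05, 4 were lower (Dhcr7, Fdps, Lss and Insig2) and 1 was higher (Ggps1), against 4.29% and 3.89% of all genes. Genotypes did not overlap, with Get1 -/- lower, in 2 of the 28 genes, Dhcr7 and Srebf2, against 6.78% of all genes, and with Get1 -/- higher in 1, Ggps1, against 5.2%. After median centring of the arrays Srebf2 overlapped and Dhcr7 and Ggps1 did not. In 22 of the 28 genes the 95% interval of the log2 change lay above -1, as it did in 10729 of the 11387 genes. With an array left out the median of the 28 genes ran from -0.38 (without Get1 +/+ replicate 1) to -0.17 (without Get1 +/+ replicate 3).

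**Figure D1:**
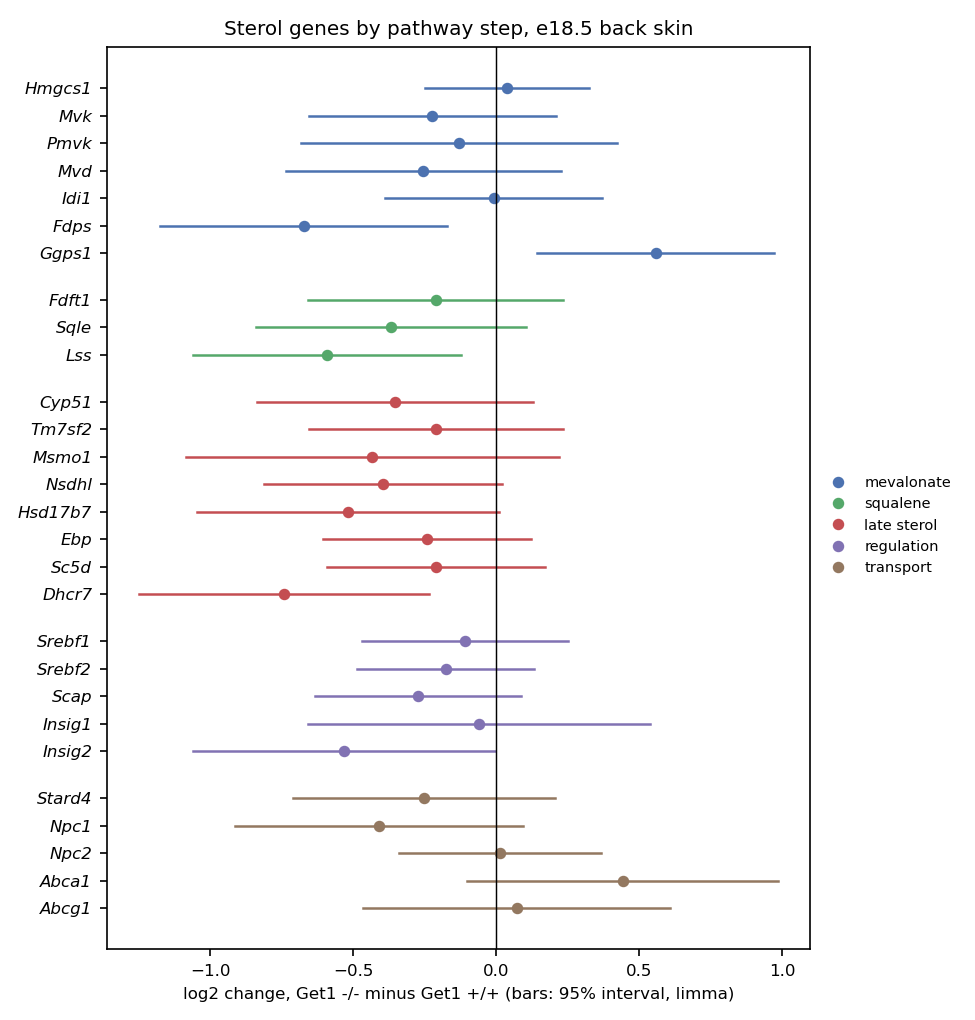
Fitted log2 change, Get1 -/- minus Get1 +/+, on the x axis for each of the 28 genes, grouped and coloured by pathway step; points are limma estimates and bars their 95% intervals. All 8 late sterol genes and all 3 squalene genes lie left of 0, with most bars crossing it, while Ggps1 at 0.56 and Abca1 at 0.44 lie to the right.

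Promoter sequence is shown for the 3 genes whose genotypes did not overlap, for Hsd17b7 and for Hmgcs1. The Hsd17b7 window holds CCAAT boxes and an E-box, and those of Insig1 and Sc5d, not printed here, also hold both. Hmgcs1 was the only gene of the 25 searched whose window held the searched form of a sterol element. RefSeq promoter windows (GRCm38.p6) matched 25 of the 31 genes, in 33 windows (Acat2, Soat1 and Nr1h2 included), while Fdps, Fdft1, Sqle, Stard4, Npc1 and Abcg1 were not searched. The 250 bases before each start were searched on both strands. The sterol element was searched as TCACNCCAC, the CCAAT box as ATTGG, an E-box as TCACGTG, and grainyhead sites as AACCGGTT and as AACNGGTT, which includes the stricter form. The 180 bases before the start are printed 5′ to 3′ on the strand of the gene, with every match in capitals. They lie at chr7:143830034-143830213 (plus strand, the most downstream of 3 annotated starts of Dhcr7), chr15:82147089-82147268 (plus), chr13:14063489-14063668 (minus), chr1:169969206-169969385 (minus) and chr13:119690171-119690350 (plus).
Dhcr7: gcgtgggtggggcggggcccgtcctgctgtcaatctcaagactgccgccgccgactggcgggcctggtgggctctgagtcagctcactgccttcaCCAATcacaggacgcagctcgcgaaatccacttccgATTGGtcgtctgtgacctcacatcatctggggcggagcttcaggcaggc
Srebf2: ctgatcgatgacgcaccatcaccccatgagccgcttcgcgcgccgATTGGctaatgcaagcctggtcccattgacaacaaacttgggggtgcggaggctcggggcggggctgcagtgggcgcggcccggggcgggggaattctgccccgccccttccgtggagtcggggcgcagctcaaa
Ggps1: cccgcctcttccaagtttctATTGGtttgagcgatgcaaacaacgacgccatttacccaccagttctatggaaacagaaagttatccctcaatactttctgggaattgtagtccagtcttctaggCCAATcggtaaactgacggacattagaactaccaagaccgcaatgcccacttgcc
Hsd17b7: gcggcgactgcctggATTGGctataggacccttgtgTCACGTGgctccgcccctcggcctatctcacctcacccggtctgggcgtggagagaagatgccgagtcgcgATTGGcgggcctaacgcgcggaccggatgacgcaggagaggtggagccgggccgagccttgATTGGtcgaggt
Hmgcs1: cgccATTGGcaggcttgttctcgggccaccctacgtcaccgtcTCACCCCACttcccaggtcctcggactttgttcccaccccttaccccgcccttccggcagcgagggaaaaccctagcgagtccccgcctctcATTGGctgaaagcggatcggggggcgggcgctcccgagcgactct

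A CCAAT box was present in 22 of the 33 windows (66.7%), against 33.8% of 32851 windows in the table, and in 21 of the 25 genes (84%), against 37.5% of all genes. In the printed stretches Hsd17b7 holds 3 of them, at 165, 73 and 12 bases before the start, with an E-box at 144. Dhcr7 holds CCAAT boxes at 85 and 49 bases before this start and none in the windows of its other starts. The E-box was found for Hsd17b7, Insig1 and Sc5d (9.09% of member windows, against 3.13% of all), and the sterol element for Hmgcs1, 137 bases before the start (3.03%, against 1.05%). Neither form of the grainyhead site occurred in a member window, where 0.116% and 1.79% of all windows hold them. These matches describe letters in a short window and were not tested. CCAAT boxes were found in the windows of Ggps1, whose brightest probe set had a log2 change above 0, and of Dhcr7 and Srebf2, below 0.

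By step, values below 0 made up all of the squalene, late sterol and regulation genes. The median log2 change was -0.13 over 7 mevalonate genes, -0.37 over 3 squalene genes, -0.38 over 8 late sterol genes, -0.18 over 5 regulators and 0.01 over 5 transport genes. Values below 0 numbered 5 of 7, 3 of 3, 8 of 8, 5 of 5 and 2 of 5 in the same order. These medians were not tested against each other. These values moved with single arrays. The mevalonate median was 0.01 without Get1 +/+ replicate 2 and -0.36 without Get1 +/+ replicate 1. The squalene median was -0.57 without Get1 +/+ replicate 1 and -0.24 without Get1 -/- replicate 3, and the late sterol median was -0.22 without Get1 +/+ replicate 2. Among the regulators, Insig1 and Srebf1 turned sign with an array left out. Insig1 was at 0.22 without Get1 -/- replicate 3 and Srebf1 at 0.0021 without Get1 -/- replicate 1.

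In the mevalonate arm Hmgcs1 and Idi1 had changes near 0, and Mvk, Pmvk and Mvd had fitted values below 0 with wide intervals. The enzymes at its end had values on both sides of 0. Fdps, the synthase that makes farnesyl diphosphate, read 2234, 2555 and 1881 in Get1 -/- skin, against 2529, 3753 and 4591 in Get1 +/+ skin. The highest Get1 -/- value stood just above the lowest Get1 +/+ value, so the groups overlapped by that pair alone. The log2 change was -0.67 ± 0.22 (SE), or 0.627-fold, with an adjusted p of 0.567 (limma). Ggps1 makes geranylgeranyl diphosphate and so draws farnesyl diphosphate away from the sterol branch. Its brightest probe set read 1025, 797 and 916 in Get1 -/- skin, against 755, 575 and 541 in Get1 +/+ skin. Every Get1 -/- value was above every Get1 +/+ value, and the log2 change was 0.56 ± 0.18 (SE, 1.47-fold, adjusted p = 0.567, limma). The other 3 kept Ggps1 probe sets did not share this difference, with log2 changes of -0.20, -0.14 and 0.20, and the mean over the 4 gave 0.11.

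The remaining 5 mevalonate genes overlapped between genotypes. Hmgcs1, the cytosolic synthase that makes HMG-CoA, averaged 7426 ± 672 in Get1 -/- and 7235 ± 625 in Get1 +/+ skin (SD, n = 3 each), and its 95% interval ran from -0.25 to 0.32 on the log2 scale. This brightest Hmgcs1 probe set had a log2 change of 0.04, and the other kept ones gave -0.07, -0.06, -0.16 and -0.22. Idi1, the isopentenyl diphosphate isomerase, had a change of -0.01 with an interval from -0.39 to 0.37, and its other kept probe set gave 0.08. Mvk and Pmvk, the kinases that phosphorylate mevalonate and phosphomevalonate, had log2 changes of -0.22 and -0.13, and Mvd, the decarboxylase that follows them, one of -0.26. Their intervals all included 0, and leaving out single arrays moved them to between -0.36 and -0.07 for Mvk and between -0.45 and -0.12 for Mvd. The other kept probe set gave -0.28 for Mvk and -0.045 for Mvd.

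All 3 squalene enzymes had fitted values below 0. Sqle, the squalene epoxidase that commits squalene to sterols, read 2018, 2526 and 1724 in Get1 -/- skin, against 2014, 3036 and 3084 in Get1 +/+ skin. Get1 +/+ replicate 1 read about as low as the Get1 -/- arrays and the other Get1 +/+ arrays stood above all of them. The log2 change was -0.37 ± 0.21 (SE, adjusted p = 0.675, limma), with -0.57 when Get1 +/+ replicate 1 was left out and -0.24 when Get1 -/- replicate 3 was. Lss, the lanosterol synthase that closes the rings, read 416, 531 and 391 in Get1 -/- skin, against 519, 763 and 749 in Get1 +/+ skin. Only Get1 -/- replicate 2 stood above the lowest Get1 +/+ array, and the log2 change was -0.59 ± 0.21 (SE, 0.663-fold, adjusted p = 0.567, limma). The other kept Lss probe set gave -0.63. Fdft1, the squalene synthase, averaged 1985 ± 245 in Get1 -/- and 2335 ± 569 in Get1 +/+ skin (SD, n = 3 each), and its probe sets gave -0.21 and -0.23 with the groups overlapping. The first of these values was -0.04 without Get1 +/+ replicate 3 and -0.40 without Get1 +/+ replicate 1.

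All 8 late sterol enzymes had fitted values below 0. Dhcr7, the reductase of the last step of the Kandutsch-Russell branch, which converts 7-dehydrocholesterol to cholesterol, read 746, 1165 and 1149 in Get1 -/- skin, against 1307, 1937 and 1850 in Get1 +/+ skin. Every Get1 -/- value lay below every Get1 +/+ value. The log2 change was -0.74 ± 0.23 (SE, 0.597-fold), with a 95% interval from -1.25 to -0.24 and an adjusted p of 0.529 (limma). This gene has a single probe set here, so no second reading was available. Hsd17b7, the ketosteroid reductase of the demethylation complex, read 618, 738 and 579 in Get1 -/- skin, against 737, 1329 and 792 in Get1 +/+ skin. The groups overlapped only where Get1 -/- replicate 2 and Get1 +/+ replicate 1 read nearly the same, and Get1 +/+ replicate 2 stood far above the rest. Its log2 change was -0.52 ± 0.23 (SE, adjusted p = 0.608, limma), and the other kept probe sets of the gene gave -0.50 and -0.87. Without Get1 +/+ replicate 2 the change was -0.25.

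The other 6 late enzymes had log2 changes between -0.43 and -0.21, and their groups overlapped. Msmo1, the methylsterol oxidase, averaged 1534 ± 392 in Get1 -/- and 2132 ± 809 in Get1 +/+ skin (SD, n = 3 each), a log2 change of -0.43. That value was -0.16 without Get1 +/+ replicate 2, -0.24 without Get1 -/- replicate 3 and -0.73 without Get1 +/+ replicate 1. Nsdhl, which acts with Hsd17b7 and Msmo1 to remove methyl groups, had a log2 change of -0.40, with an interval from -0.81 to 0.02. Cyp51, the lanosterol demethylase, had log2 changes of -0.355 and -0.357 in its 2 kept probe sets, and the brightest gave -0.18 without Get1 -/- replicate 3 and -0.20 without Get1 +/+ replicate 2. The isomerase Ebp (-0.24), the desaturase Sc5d (-0.21) and the sterol reductase Tm7sf2 (-0.21) lay closer to 0. With an array left out these ran from -0.37 to -0.16 for Ebp, from -0.35 to -0.10 for Sc5d and from -0.30 to -0.05 for Tm7sf2. For Sc5d the kept probe sets disagreed, with log2 changes of -0.37, -0.21 and 0.20.

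**Figure D2:**
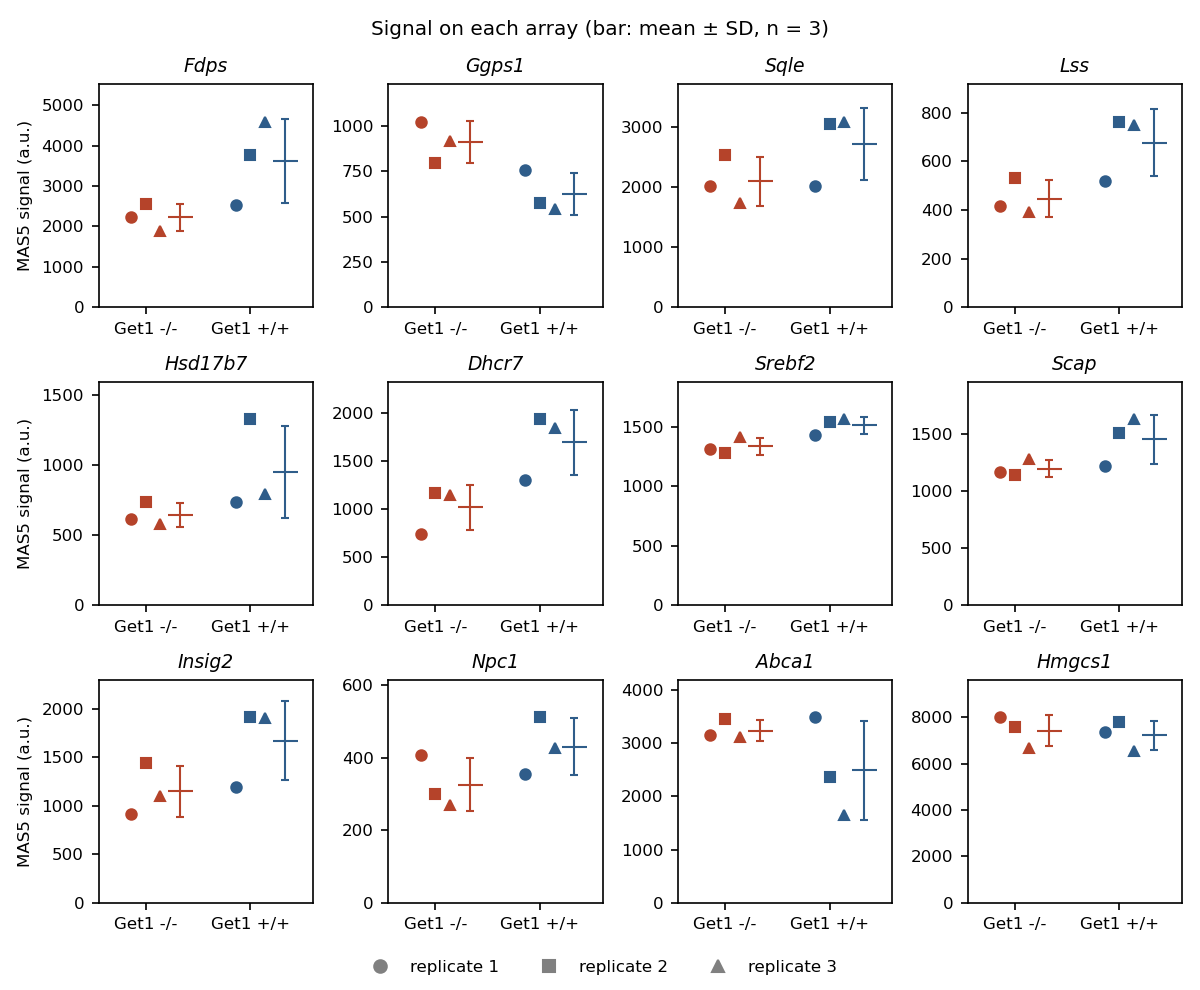
MAS5 signal in arbitrary units on the y axis, from 0, for 12 genes, with Get1 -/- arrays left and Get1 +/+ arrays right; marker shape gives the replicate number, and the bar beside each group is the mean ± SD (n = 3). Dhcr7 and Srebf2 separate with Get1 -/- lower and Ggps1 with Get1 -/- higher, and in Fdps, Sqle, Lss, Scap and Insig2 Get1 +/+ replicate 1 lies closest to the Get1 -/- arrays.

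Among the regulators, Insig2 had the largest difference and Srebf2 the only one without overlap. Insig2, an anchor that retains the Scap-SREBP complex in the endoplasmic reticulum, read 910, 1435 and 1098 in Get1 -/- skin, against 1196, 1911 and 1903 in Get1 +/+ skin. Get1 -/- replicate 2 stood above Get1 +/+ replicate 1, which was the only overlap. The log2 change was -0.53 ± 0.23 (SE, 0.691-fold, adjusted p = 0.607, limma), and its other kept probe sets gave -0.56 and -0.67. Srebf2 encodes SREBP-2, the main activator of cholesterol synthesis genes. Its brightest probe set read 1318, 1279 and 1418 in Get1 -/- skin, against 1429, 1546 and 1564 in Get1 +/+ skin. Genotypes were separated by a narrow gap, between Get1 -/- replicate 3 and Get1 +/+ replicate 1. The change was -0.18 ± 0.14 (SE, adjusted p = 0.777, limma). The second Srebf2 probe set read 901, 868 and 810 in Get1 -/- skin, against 1030, 1400 and 1238 in Get1 +/+ skin. These groups did not overlap either, and the change was larger, at -0.50 ± 0.17 (SE, adjusted p = 0.737 over the kept probe sets, limma).

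Scap, the sterol sensor and escort of SREBPs, read 1167, 1141 and 1281 in Get1 -/- skin, against 1220, 1515 and 1631 in Get1 +/+ skin. Get1 -/- replicate 3 alone exceeded the lowest Get1 +/+ array, and the change was -0.27 ± 0.16 (SE, adjusted p = 0.692, limma). Insig1, itself a well known target of SREBPs, averaged 523 ± 157 in Get1 -/- and 535 ± 124 in Get1 +/+ skin (SD, n = 3 each), and its interval ran from -0.66 to 0.54. Srebf1, whose SREBP-1 products favour fatty acid genes, had a log2 change of -0.11 with an interval from -0.47 to 0.25.

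Transport genes did not share a direction. Npc1, the late endosomal membrane protein that moves cholesterol out of the lysosome, read 407, 300 and 268 in Get1 -/- skin, against 354, 511 and 426 in Get1 +/+ skin. Get1 -/- replicate 1 stood above Get1 +/+ replicate 1, and the change was -0.41 ± 0.22 (SE, adjusted p = 0.655, limma). Abca1, the transporter that loads cholesterol onto lipoprotein and a target of liver X receptors, read 3146, 3459 and 3111 in Get1 -/- skin, against 3490, 2357 and 1643 in Get1 +/+ skin. The Get1 -/- arrays lay close together and the Get1 +/+ arrays were spread widely, with replicate 1 the highest of all 6. The change was 0.44 ± 0.24 (SE, adjusted p = 0.658, limma), and the other kept probe sets gave 0.24 and 0.04. The brightest gave 0.17 without Get1 +/+ replicate 3 and 0.72 without Get1 +/+ replicate 1. Stard4, a soluble sterol carrier, had a log2 change of -0.25 in its brightest probe set and of -0.35 and -0.76 in the others. The first was -0.05 without Get1 +/+ replicate 2 and -0.12 without Get1 -/- replicate 3. Npc2, the luminal partner of Npc1, averaged 8598 ± 895 in Get1 -/- and 8586 ± 1657 in Get1 +/+ skin (SD, n = 3 each), and Abcg1, an exporter of sterols to lipoprotein, had a log2 change of 0.07 with an interval from -0.47 to 0.61.

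Over the 54 kept probe sets of the 28 genes, 43 had a log2 change below 0 and 11 above, with a median of -0.22, and 0 passed the adjusted threshold. Of 15 genes with several kept probe sets, all readings lay below 0 in 9 and above 0 in 1 (Abca1), and readings of both signs occurred in 5 (Hmgcs1, Idi1, Ggps1, Sc5d and Npc2). The readings of Cyp51, Fdft1 and Lss lay close to each other, and those of Ggps1 were spread most widely. A further 10 probe sets of 9 genes lay below the signal filter and ran from -1.0 to 0.64.

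**Figure D3:**
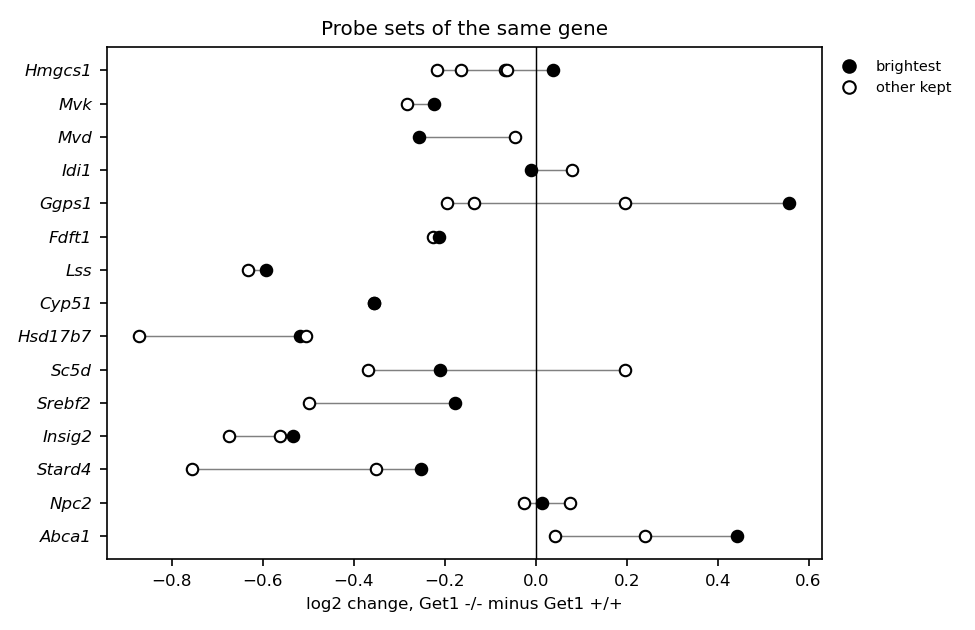
Log2 change, Get1 -/- minus Get1 +/+, on the x axis for every kept probe set of the 15 genes that have more than 1; the filled point is the brightest probe set and open points are the others. The readings of Lss, Hsd17b7 and Insig2 all lie at or below -0.50, while those of Ggps1 run from -0.20 to 0.56.

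The sterol genes varied from mouse to mouse within each genotype. Taken as the mean log2 deviation of the 18 synthesis genes from their own 6-array means, the arrays stood at -0.13, -0.02 and -0.26 in Get1 -/- skin, against -0.12, 0.29 and 0.24 in Get1 +/+ skin. Get1 +/+ replicate 1 therefore lay among the Get1 -/- arrays, and the groups overlapped when the arrays were taken as unpaired. Within each replicate number the Get1 -/- value was the lower, though nearly equal for replicate 1. The labels do not state whether these numbers pair the mice. Get1 +/+ replicate 1 was the lowest Get1 +/+ array in 13 of the 18 genes. In 13 of the 18 every Get1 -/- array was below both of the other Get1 +/+ arrays, against 17.6% of all genes. Among Get1 -/- mice, replicate 2 was the highest in 12 of the 18 genes and replicate 3 the lowest in 12. The median deviation over all genes lay between -0.04 and 0.06 on each array. Summed signals of the 7 skeletal muscle markers were 108818, 77775 and 115663 in Get1 -/- skin, against 104537, 67192 and 86479 in Get1 +/+ skin. The 3 arrays with the highest muscle sums, Get1 -/- replicates 1 and 3 and Get1 +/+ replicate 1, had the 3 lowest synthesis values. None of the other measured marker groups had its 3 highest sums on these same arrays. The part of muscle in the sterol values was not tested.

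Leaving out Get1 +/+ replicate 1 left 17 of the 28 genes with separate genotypes and lower Get1 -/- values, when 17.6% of all genes separated in that direction with the 5 remaining arrays. Without Get1 -/- replicate 2 the count was 9 of 28, against 12.6% of all genes. Leaving out any of the other 4 arrays gave 3 of 28 without Get1 -/- replicate 1 (10.0% of all genes) or replicate 3 (10.97%), and 2 of 28 without Get1 +/+ replicate 2 (10.6%) or replicate 3 (9.19%). In all 6 cases 0 of the 28 passed, and without Get1 +/+ replicate 1 the smallest adjusted p was 0.0589, for Fdps (limma). Over all genes 122 passed without that array, against 5 in the reported fit. The beta-actin control read above 30000 on Get1 -/- replicate 1 and Get1 +/+ replicates 1 and 2, and ran from 22558 to 26889 on the others. The median change of the 28 genes was -0.21 among the 3 arrays above 30000 and -0.44 among the other 3, where the medians of all genes were 0.03 and -0.07. Each contrast has a single array on 1 side, and the part of this control in the sterol values was not tested.

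**Figure D4:**
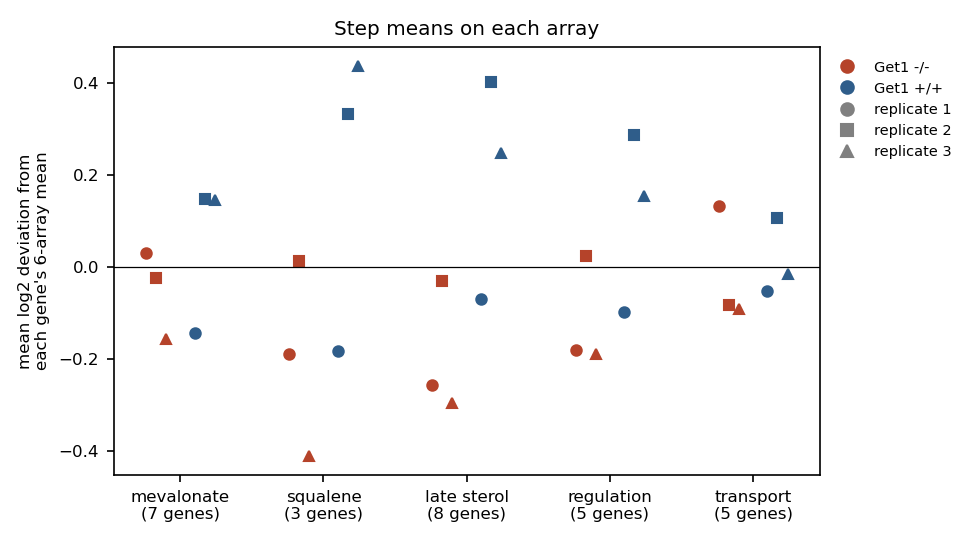
Mean log2 deviation from each gene's 6-array mean on the y axis, for each array (Get1 -/- left, Get1 +/+ right, marker shape by replicate) and pathway step. Get1 +/+ replicates 2 and 3 stand highest in the squalene, late sterol and regulation steps, Get1 +/+ replicate 1 falls among the Get1 -/- arrays there, and transport shows no separation.

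Genes around the pathway were read from a list of 60, of which 52 were measured. Of these, 30 had a log2 change below 0 and 22 above, with a median of -0.02 (0.01 over all genes), and 0 passed in either direction (smallest adjusted p = 0.567, limma). Genes of SREBP processing and sterol sensing had a median of -0.10 (5 of 7 below 0), sterol carriers and uptake -0.04 (11 of 18), oxysterol and sterol sulphate metabolism -0.01 (3 of 5), isoprenoid use 0.04 (4 of 8) and fatty acid supply under SREBP control -0.08 (7 of 14). Fasn, the fatty acid synthase, had a log2 change of 0.03 and Acly, which supplies cytosolic acetyl-CoA, of -0.23. Genotypes did not overlap, with Get1 -/- lower, in 4 of the 52 (Sult2b1, Mylip, Fnta and Elovl6), and with Get1 -/- higher in 1 (Lipa), against 6.78% and 5.2% of all genes.

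The smallest p in this wider list was that of Sult2b1, which makes cholesterol sulphate, a lipid of the outer epidermis that regulates desquamation. It read 452, 1055 and 889 in Get1 -/- skin, against 1057, 1807 and 1634 in Get1 +/+ skin. The groups were barely separate, with 1055 the highest Get1 -/- and 1057 the lowest Get1 +/+ value, and the log2 change was -0.96 ± 0.32 (SE, 0.514-fold, adjusted p = 0.567, limma). Without Get1 -/- replicate 1 it was -0.59. Mylip, a ubiquitin ligase induced by liver X receptors that degrades lipoprotein receptors, read 1542, 1404 and 1458 in Get1 -/- skin, against 1631, 2204 and 2027 in Get1 +/+ skin. The groups did not overlap, and the log2 change was -0.40 ± 0.16 (SE, adjusted p = 0.587, limma). Aacs, which turns acetoacetate into acetoacetyl-CoA for sterol synthesis, had a log2 change of -0.46, the malic enzyme Me1 of -0.60 and the retinol dehydrogenase Rdh11 of -0.53, with overlapping groups and adjusted p of 0.607 to 0.608 (limma). Me1 was at -0.34 without Get1 -/- replicate 1 and Rdh11 at -0.33 without Get1 +/+ replicate 2. Pggt1b, a subunit of geranylgeranyl transferase, had a log2 change of 0.79 ± 0.36 (SE, adjusted p = 0.608, limma). It read 1046, 995 and 1083 in Get1 -/- skin, against 1214, 431 and 412 in Get1 +/+ skin. Its Get1 +/+ replicate 1 stood above all other arrays, and without that array the change was 1.30 (adjusted p = 0.0206, limma). That array is the one that goes against the difference, and over all genes 122 passed without it, against 5 in the reported fit. The Pggt1b change was 0.52 without Get1 +/+ replicate 3, 0.56 without Get1 +/+ replicate 2 and 0.61 as the mean of its probe sets.

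The tissue label was read against markers of skin cell types. Krt5 and Krt14, the keratins that define basal keratinocytes, read at least 14882 on every array. Summed signals of the 4 basal keratinocyte markers ran from 36389 to 40985 in Get1 -/- and from 38444 to 46413 in Get1 +/+ skin, with 3 of 4 below 0. The 4 suprabasal markers summed to 84402 to 107271 in Get1 -/- and 101984 to 113305 in Get1 +/+ skin, with 4 of 4 below 0, Lor among them at -0.52. Adipocyte markers (4 of 7 measured) summed to 20425, 28765 and 25662 in Get1 -/- skin, against 18813, 27087 and 24855 in Get1 +/+ skin, and were lowest in replicate 1 of each genotype. The 7 skeletal muscle markers were all above 0 (77775 to 115663 in Get1 -/- and 67192 to 104537 in Get1 +/+ skin), and the 7 macrophage markers summed to 12327 to 13024 in Get1 -/- and 9133 to 11833 in Get1 +/+ skin, without overlap, with 4 of 7 above 0. Endothelial markers were above 0 in 4 of 4 and fibroblast markers in 3 of 6. Of 6 sebaceous gland markers, Mc5r, Scd3 and Mogat1 lay below the signal filter and the others were not analysed here. No measured marker of these lists read below 127 on any array. Measured markers are those past the signal filter, at a mean of 137, so the filter largely sets this floor. The part of cell composition in the sterol values was not tested.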

How the data were processed

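Total RNA of 6 back skin samples was hybridised to Affymetrix arrays. The deposited values are linear signal intensities made by the authors with MAS5, per the submitters' processing notes, with no version or genome build given in the sources used here. They share 1 scale (2% trimmed mean of 500), and were not scaled again. Precision is limited by there being 3 arrays per genotype.

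After removal of 64 control probe sets and log2 transformation, the filter on low signal retained 22519 of 45037 probe sets, those whose mean log2 reached the median over probe sets, which is 137 in signal units. Platform annotation gave 34945 probe sets 1 symbol, 932 several and 9160 none. Entrez identifiers of 99.4% of those with 1 symbol were found in RefSeq (GRCm38.p6), which changed 0 symbols. The brightest kept probe set stood for each of 11387 genes. The test was limma's two-sided moderated comparison of the genotypes (version 3.58.1, R 4.3.3, lmFit and eBayes with trend), with Benjamini-Hochberg adjustment over all genes and a threshold of 0.05. Intervals are at 95%. The code was tested on simulated data. No column of the table lacked a sample.

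Every member was accounted for. Array values are given for members without overlap and for the 2 per step with the smallest p (with Hmgcs1 added in the plot), and the 6 smallest p were named among surrounding genes, with Fasn, Acly, Fnta, Elovl6, Lipa and Lor, and the second probe sets described, chosen after their values were seen. The members, lists and tests were chosen with earlier results of these data known. The fit was repeated with median centring or quantile normalization, without the filter or with it at the 70th percentile, with 37.5 added before log2, without the trend, with array weights, with a replicate block, without each array in turn, and on the mean of a gene's probe sets.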

Additional observations from a re-analysis of the deposited data

How the results depend on the processing

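Under the 15 alternatives 0 sterol genes passed, and the smallest adjusted p was 0.0589. The number of sterol genes below 0 was 21 to 25 across the alternatives (22 of 26 measured under the stricter filter), against 23 in the reported fit. The median of the 28 ran from -0.38 to -0.17 with an array left out. It was -0.44 within the 3 arrays of lower actin control, a split chosen after the data were seen. The mevalonate median ran from -0.36 to 0.010 and the transport median from -0.091 to 0.17 with an array left out. The number of all genes past the threshold was 5, with 10 after median centring, 8 with array weights, 44 with the replicate block and 3 to 122 with an array left out; surrounding genes passing numbered 0 to 1. Of 28 genes, 21 kept their direction under every alternative that measured them. The other 7 had small changes that turned sign. Hmgcs1 was -0.037 with array weights, -0.095 as the mean of probe sets and -0.032 to 0.11 with an array left out, and Idi1 was 0.035 as the mean of probe sets and -0.12 to 0.10 with an array left out. With an array left out, Pmvk ran from -0.39 to 0.010, Srebf1 from -0.20 to 0.0021, Insig1 from -0.21 to 0.22, Npc2 from -0.091 to 0.17 and Abcg1 from -0.058 to 0.25. The cause of these moves was not tested.

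With the replicate number as a block, whose pairing the labels do not state, 0 sterol genes passed (smallest adjusted p = 0.101). Over the 11387 genes same-numbered arrays correlated at -0.02, 0.36 and -0.03 in their deviations from the genotype means and 2 of 6 arrays correlated best with their own number, so the numbers were not treated as pairs in this fit over genes. Over the 22519 kept probe sets these correlations were 0.133, 0.26 and 0.14 and 6 of 6 arrays correlated best with their own number. These readings differ, so whether the numbers pair the mice is not known. If they do, the reported fit left the pairing out. The 95% intervals of the 28 genes spanned 0.574 to 1.30 on the log2 scale, which limits what 3 arrays per genotype can show.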

Other observations

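A pair of sterol genes outside the list was read after the values had been seen. Lbr, a nuclear envelope protein that also acts as a sterol reductase at the step of Tm7sf2, read 3799, 4255 and 3741 in Get1 -/- skin, against 3504, 4125 and 4730 in Get1 +/+ skin. The groups overlapped, and the log2 change was -0.06 ± 0.15 (SE, adjusted p = 0.942, limma). Nr1h3, the liver X receptor of macrophages and liver, read 209, 159 and 186 in Get1 -/- skin, against 119, 157 and 196 in Get1 +/+ skin. The groups overlapped, and the change was 0.25 ± 0.26 (SE, adjusted p = 0.847, limma).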
